A study of Mus musculus with 6 samples.

Results

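Genes that release or oxidise arachidonic acid, or make or sense prostaglandins, were followed in 2 lines of immortal mouse melanocytes. Melanocytes are the pigment-producing cells of skin and hair. The set was a list of 10 genes: the phospholipase gene Pla2g4a, the cyclooxygenase genes Ptgs1 and Ptgs2, the synthase genes Ptges, Ptges2 and Ptgds, the receptor genes Ptger1, Ptger2 and Ptger4, and the lipoxygenase gene Alox5. Of these 10, 8 had a probe set that carried 1 gene symbol, among 22180 genes measured in all. Ptgs1 and Ptger1 were not analysed here. Where a gene had several probe sets, the brightest by its mean over the 6 arrays stood for it, a choice that uses the signal and not the line; among the members this touched Alox5 alone.

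One line, called heterozygous here, carried Sox10 LacZ/+, an allele of the transcription factor gene Sox10 with a LacZ insertion beside an intact copy, on an Ink4a-Arf null background, and was derived from mice aged 3 days. The other, melan-Ink4a-Arf-1, was wild type for Sox10 and homozygous for the Cdkn2a tm1RDp allele, which disrupts Ink4a-Arf, so both lines lacked that locus; the age of its source mice is not stated in these sources. Both backgrounds were backcrossed to C57BL/6J, and both lines were kept in medium with 10% serum, 200 nM of the phorbol ester 12-O-tetradecanoylphorbol 13-acetate and 200 pM of cholera toxin. Each line was measured on 3 one-colour Affymetrix arrays. A single line stood for each Sox10 genotype, so that genotype and line cannot be told apart, and because nothing says whether replicates were separate cultures, p-values cover only the spread between these arrays.

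As background, cytosolic phospholipase A2 frees arachidonic acid from membrane phospholipids, cyclooxygenases turn it into an unstable prostaglandin intermediate, and terminal synthases convert that into prostaglandins E, D, F, prostacyclin or thromboxane. These are secreted and act on G protein-coupled receptors, some of which raise cyclic AMP. Lipoxygenases and cytochrome P450 epoxygenases use the same fatty acid for leukotrienes and epoxides. In skin, prostaglandins come from keratinocytes, leukocytes and melanocytes and can affect pigment cells. Phorbol esters activate protein kinase C, a known inducer of cyclooxygenase-2, and cholera toxin raises cyclic AMP, and both agents were in the medium of both lines.

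All values are log2 signals made by the authors with RMA; a difference is heterozygous minus wild type, and a gene passed at an adjusted p below 0.05 over all genes (limma, Benjamini-Hochberg). The array medians ran from 5.72 to 5.78. Wild-type replicate 2 stood apart, at least 2-fold away from its companion arrays in 261 genes, where replicate 1 was so in 22 and replicate 3 in 54 (heterozygous arrays, 0 to 2). A level below 5.2, which 40% of the probe sets do not reach, is called dim. Both lines gave strong signals of the pigment genes Tyrp1 (12.95 in the wild type and 12.89 in the heterozygous line) and Pmel (12.63 and 12.85), neither of which passed. Of 10 melanocyte markers 2 were higher, Mitf by 0.67 and Trpm1 by 1.14, 4 lower and 4 did not pass. Those that fell were the tyrosinase gene Tyr (−2.10, from 10.75 to 8.65, adjusted p 1.28e-05), Gpr143 (−1.002), Oca2 (−0.88) and Dct (−0.68). Without wild-type replicate 2, 4 melanocyte markers were higher and 4 lower, with Pmel (0.31, adjusted p 0.0287) and Slc45a2 (0.44, adjusted p 0.0042) added as higher.

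Among the 8 measured members, 2 were higher in the heterozygous line, 0 were lower and 6 did not pass, where 13.4% of all genes passed and 7.46% passed as higher. At an unadjusted p below 0.05 the counts by limma were 2 higher and 1 lower, beside 2989 higher and 2544 lower among all 22180 genes. The members had been chosen with such results known, and nothing is read from that share. The 2 genes that rose were Pla2g4a, which stands at the first step, and Ptgs2, which follows it. The median difference of the 8 members was −0.04, against 0.001 over all genes. For 3 of the 8, Pla2g4a, Ptgs2 and Ptgds, no wild-type array fell within the heterozygous range or the reverse; 31.6% of all genes share this. An at least 2-fold difference that passed was found for 1 member, Pla2g4a, and for 3.53% of all genes. With wild-type replicate 2 or replicate 3 left out, or with array weights, 3 members passed, Ptgds being added as lower. Without wild-type replicate 2, 19.0% of all genes passed. The shares of all genes without replicate 3 or with array weights are not given here, so nothing is read from the added call.

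**Figure D1:**
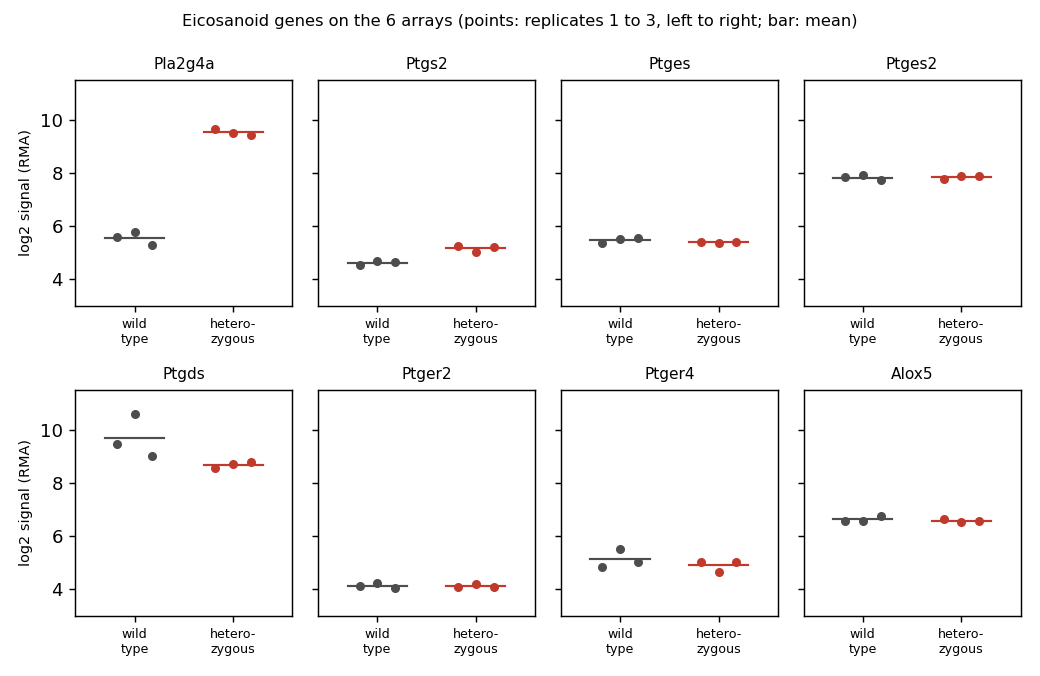
Log2 signal of the 8 measured genes on each array, wild type in grey and heterozygous in red; points are replicates 1 to 3 from left to right and bars are means of 3 arrays. Pla2g4a lies near 5.54 in the wild type and near 9.52 in the heterozygous line, Ptgs2 stays between 4.55 and 5.26, and wild-type replicate 2 of Ptgds stands at 10.58.

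Pla2g4a encodes the cytosolic phospholipase that releases arachidonic acid when calcium rises. Its wild-type arrays read 5.59, 5.77 and 5.27 and its heterozygous arrays 9.65, 9.49 and 9.43. Every heterozygous array was far above every wild-type array, and the spread within a line was small beside the gap. The difference was 3.98 (SE 0.13, 95% confidence interval 3.67 to 4.28, adjusted p 6.95e-07), or 15.8-fold on the linear scale, and it ranked 40 of 22180 genes by size. The wild-type mean of 5.54 ± 0.26 (SD, n = 3) lay at the 46.4 percentile of all probe sets and the heterozygous mean of 9.52 ± 0.11 at the 90.1 percentile. A wild-type level that close to the dim range makes the fold depend on the array's background. With any single array left out, and under every other alternative that was run, the difference stayed between 3.84 and 4.09 and passed.

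Ptgs2 encodes cyclooxygenase-2, the inducible enzyme of prostaglandin synthesis. It read 4.55, 4.67 and 4.65 on the wild-type arrays and 5.26, 5.02 and 5.22 on the heterozygous arrays. The lines did not overlap, but both means, 4.62 ± 0.07 and 5.17 ± 0.13 (SD, n = 3 each), were dim. The difference was 0.55 (SE 0.09, 95% confidence interval 0.34 to 0.75, adjusted p 0.00485), or 1.46-fold, and it passed in each of the 13 alternatives that kept the gene (adjusted p 0.00226 to 0.0302). How far these signals lie above the background of the probe set was not tested.

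Markers of other cells moved beside this pair. Of 10 fibroblast markers 4 were higher and 0 lower (Dcn by 5.92, Pdgfrb by 4.08, Fbln1 by 3.18 and Col1a2 by 1.24), and their summed linear signal was 870.4 to 1132 on the wild-type arrays and 6084 to 6229 on the heterozygous arrays. The defining fibroblast genes Col1a1 and Col3a1 did not pass (−0.20 and 0.10), and Lum was dim in both lines. Of 9 endothelial and smooth muscle markers 5 were higher and 0 lower, with sums of 2471 to 3035 and 10360 to 10890. The smooth muscle actin gene Acta2 went from 7.11 to 12.45, a difference of 5.34 (40.5-fold, adjusted p 1.29e-07, rank 12 of 22180 genes by size) that was larger than that of Pla2g4a. The others that rose were Eng (1.01), Tagln (0.94), Cnn1 (0.44) and Vwf (0.38), while Pecam1, Cdh5, Kdr and Myh11 did not pass. Of 8 keratinocyte markers 0 passed, with 1 higher and 0 lower at an unadjusted p below 0.05 by limma, and sums of 351.7 to 390.2 and 378.1 to 405.6. Without wild-type replicate 2, Postn (0.67) was added to the fibroblast markers that passed and Cdh1 (0.49) was the 1 keratinocyte marker to pass. The part of such genes in the Pla2g4a and Ptgs2 results was not tested. In a bulk culture more cells of a type and more RNA per cell cannot be told apart.

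Pla2g4a and Ptgs2 lie near each other on chromosome 1. The noncoding gene Ptgs2os was the 1 measured gene between them in the gene order of the reference (GRCm38.p6), and genes without a usable probe set were not placed. The other 10 genes with a probe set in that stretch, 5 before Pla2g4a, Ptgs2os and 4 after Ptgs2, were looked at after the results were seen. By limma 0 of them passed, and 0 had an unadjusted p below 0.05. Their differences ran from −0.21 for Odr4 to 0.13 for Rgs21, and 9 of the 10 were dim in both lines. Ptgs2os, transcribed from the other strand upstream of Ptgs2, differed by −0.03 (SE 0.11, adjusted p 0.894). With 9 of them dim, a fall of those genes may not have been detectable.

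**Figure D2:**
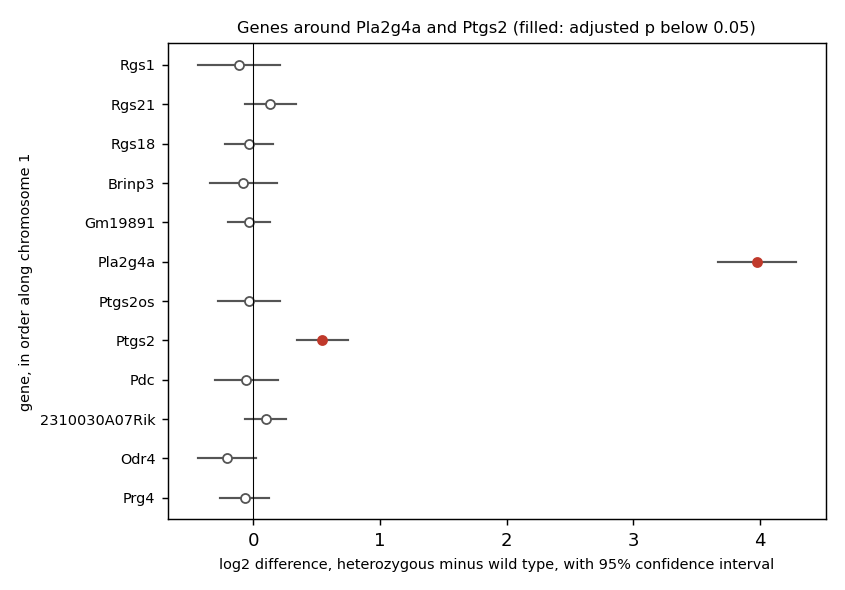
Log2 difference with its 95% confidence interval for 12 genes with a probe set in their order along chromosome 1; filled points passed at an adjusted p below 0.05. Pla2g4a (3.98) and Ptgs2 (0.55) lie to the right of 0, and the other 10 lie between −0.21 and 0.13.

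The promoter windows of the 2 genes that rose are given with that of Ptgds, the member with the largest difference in the other direction. They come from RefSeq on GRCm38.p6, which held 10 windows for 9 of the 10 members, and are cut to 250 bases before the annotated start and 30 after it (280 bases in all, written 5′ to 3′ on the gene's strand). Pla2g4a has a pair of annotated starts, of which the upstream one is shown (chr1:149961261-149961540, minus strand), beside Ptgs2 (chr1:150099781-150100060, plus strand) and Ptgds (chr2:25469720-25469999, minus strand). Capitals mark every match, on either strand, to CACGTG (the E-box bound by MITF and related factors), CATGTG (a variant of it), TGACG (the core of the cAMP response element), the full element TGACGTCA, TGACTCA (the AP-1 or phorbol ester response element) and a pair of SOX factor core sequences, ACAAAG (the first) and ACAATG (the second).
Pla2g4a: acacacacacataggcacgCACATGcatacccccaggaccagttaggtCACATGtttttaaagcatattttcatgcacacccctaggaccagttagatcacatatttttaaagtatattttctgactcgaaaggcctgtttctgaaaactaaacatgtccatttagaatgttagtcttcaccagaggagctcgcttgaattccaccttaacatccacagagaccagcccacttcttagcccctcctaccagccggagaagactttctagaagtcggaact
Ptgs2: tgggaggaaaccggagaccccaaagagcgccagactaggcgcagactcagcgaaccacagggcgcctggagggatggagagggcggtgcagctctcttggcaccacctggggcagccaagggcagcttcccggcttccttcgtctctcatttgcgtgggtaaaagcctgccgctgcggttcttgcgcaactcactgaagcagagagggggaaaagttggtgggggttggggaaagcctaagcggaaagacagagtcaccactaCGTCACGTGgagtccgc
Ptgds: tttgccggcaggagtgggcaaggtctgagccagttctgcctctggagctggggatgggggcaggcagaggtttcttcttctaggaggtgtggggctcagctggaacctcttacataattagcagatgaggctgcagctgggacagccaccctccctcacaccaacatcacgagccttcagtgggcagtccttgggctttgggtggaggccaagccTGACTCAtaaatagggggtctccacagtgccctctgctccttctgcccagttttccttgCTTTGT

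The Ptgs2 window holds 1 CACGTG and, overlapping it, 1 TGACG match on the opposite strand, both just after the annotated start (first bases 17 and 14). CACGTG occurs in 6.79% and TGACG in 19.9% of the 32851 promoter windows of this length in the reference table. The Pla2g4a window has CATGTG matches on the opposite strand at 231 and 202 bases before the start, and CATGTG occurs in 13.4% of windows. That window holds 0 matches to the other sequences searched, while the window of the second annotated start, not printed, holds 1 SOX core on the gene's strand at base 3 after that start. In the Ptgds window TGACTCA lies 35 bases before the start (4.94% of windows), and a SOX core on the opposite strand lies after it (27.4% of windows). The full element TGACGTCA, found in 1.74% of windows, is in 0 of the 3. Windows of the other members were searched too. That of Ptges2, which did not pass, holds CACGTG 77 bases before the start. SOX cores lie in the windows of Ptges, Ptges2 and Ptger2, none of which passed. The windows of Ptgs1, Ptger4 and Alox5 hold 0 matches. All of these are matches of letters and show no binding.

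The prostaglandin D branch has one synthase gene among the members. Ptgds encodes the lipocalin-type prostaglandin D synthase, a protein abundant in brain, testis and some pigment cells. Its wild-type arrays read 9.46, 10.58 and 9.0 and its heterozygous arrays 8.55, 8.72 and 8.79. Every heterozygous array was lower than every wild-type array, yet the wild-type arrays spread over more than the gap between the means. The means were 9.68 ± 0.81 and 8.68 ± 0.13 (SD, n = 3 each), the difference was −0.998 (SE 0.34, 95% confidence interval −1.80 to −0.20), and it did not pass (adjusted p 0.11). Without wild-type replicate 2 the difference shrank to −0.55 and passed (adjusted p 0.0384), without wild-type replicate 3 it was −1.34 and passed (adjusted p 0.0385), and with array weights it was −0.81 and passed (adjusted p 0.0414; 0.0384 to 0.267 over all alternatives). The direction was the same throughout, and the size moved by over 1.5 times with that array.

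Hpgds, the gene of the hematopoietic prostaglandin D synthase, is no member but makes the same product, and it went the other way. It read 5.31, 5.40 and 5.17 on the wild-type arrays and 6.73, 7.27 and 6.86 on the heterozygous arrays. The lines were well separated, with a difference of 1.66 (SE 0.14, adjusted p 0.000147), or 3.17-fold. The wild-type mean of 5.29, at the 41.6 percentile of all probe sets, was close to the dim range, so this fold too depends on the array's background. Hpgds is a gene of mast cells and other leukocytes, so their markers are given beside it. Of 10 mast cell markers 1 was higher, the transcription factor gene Gata2 (2.41, adjusted p 1.39e-05), and the other 9, among them the defining genes Cpa3, Fcer1a, Ms4a2 and Tpsb2, were dim in both lines and did not pass. Their summed linear signal, Gata2 included, was 302.5 to 371.8 in the wild type and 1093 to 1161 in the heterozygous line. Of 10 macrophage and other leukocyte markers 2 were higher, Cd68 (1.32) and Fcer1g (0.36), 0 were lower and 8 did not pass. Ptprc was dim in both lines (3.91 in the wild type), and Csf1r, Adgre1, Itgam, Tyrobp and Spi1 differed by −0.08 to 0.005. Without wild-type replicate 2, Lyz2 was added as lower (−0.74, adjusted p 0.00122). The sums, Cd68 included (7.14 to 8.46), were 530.7 to 562.6 and 713.4 to 759.2.

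**Figure D3:**
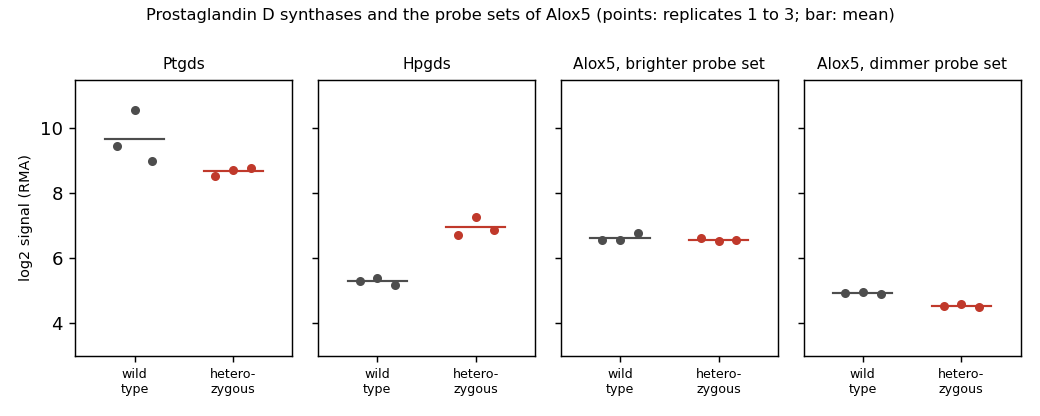
Log2 signal on each array of Ptgds, Hpgds and both probe sets of Alox5; points are replicates 1 to 3, bars are means of 3 arrays. Ptgds is lower (8.68 against 9.68) and Hpgds higher (6.96 against 5.29) in the heterozygous line, and of the Alox5 probe sets the dimmer alone separates the lines.

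The prostaglandin E synthases gave values that lay on top of each other in the lines. Ptges encodes the inducible microsomal synthase that works with cyclooxygenase-2. It read 5.37, 5.50 and 5.55 in the wild type and 5.41, 5.35 and 5.41 in the heterozygous line, with overlapping arrays. The difference was −0.09 (95% confidence interval −0.27 to 0.09, adjusted p 0.559). Ptges2, the gene of a constitutive membrane-associated synthase, read 7.83, 7.90 and 7.72 against 7.77, 7.89 and 7.88. Its arrays overlapped too, with a difference of 0.03 (95% confidence interval −0.16 to 0.21, adjusted p 0.879). Both intervals lie inside a 2-fold change of signal in either direction, and neither shows that the lines were alike. Ptges, with means of 5.48 in the wild type and 5.39 in the heterozygous line, was close to the dim range, so a change there may be hidden. Ptges3, which encodes the HSP90 co-chaperone p23, also described as a cytosolic synthase, differed by −0.11 and did not pass.

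The receptor genes of the set were dim. Ptger2 encodes EP2, a receptor for prostaglandin E that raises cyclic AMP. Its arrays read 4.12, 4.24 and 4.05 in the wild type and 4.07, 4.20 and 4.08 in the heterozygous line, which overlap fully. The difference was −0.03 (95% confidence interval −0.22 to 0.16, adjusted p 0.889), and its sign turned to 0.002 with median centring. Ptger4 encodes EP4, which also raises cyclic AMP. It read 4.85, 5.53 and 5.01 against 5.02, 4.65 and 5.01, with wild-type replicate 2 the high array. The difference was −0.24 (95% confidence interval −0.66 to 0.18, adjusted p 0.489), and −0.04 without that array. Both means of both genes were dim, so a change in either receptor may not have been detectable at this signal.

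Alox5 encodes arachidonate 5-lipoxygenase, the first enzyme of leukotriene synthesis and a gene of myeloid cells. The brighter of its 2 probe sets read 6.55, 6.56 and 6.77 in the wild type and 6.63, 6.53 and 6.57 in the heterozygous line. The arrays overlapped, and the difference was −0.05 (95% confidence interval −0.25 to 0.15, adjusted p 0.792). The dimmer probe set read 4.93, 4.97 and 4.89 against 4.52, 4.59 and 4.49, with no overlap. It differed by −0.40 (SE 0.07, adjusted p 0.00903 in a fit of every probe set with 1 symbol; 0.00903 to 0.937 over all alternatives for Alox5) and was dim in both lines, with means of 4.93 and 4.53. The probe sets thus disagree, and the part of the transcript and the strand that each one reads are not stated in these sources.

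For the member with the largest difference, Pla2g4a, the genes with the most similar values over the 6 arrays were Lmcd1 (Pearson r 0.99966), Aldh1a7 (0.99931) and Unc5b (0.99928). For Ptgds they were Gys1 (0.99775), Tgfa (0.99551) and Stac2 (0.99424), each of which, like Ptgds, was highest on wild-type replicate 2. The arrays fall into 2 lines, and for Pla2g4a these values largely restate the gap between them. For Ptgds they also follow the high wild-type replicate 2 (10.58, against 9.46 and 9.0 on the other wild-type arrays). An r above 0.95 was found for 982 genes with Pla2g4a and for 220 with Ptgds. They are given as a description of 6 arrays.

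The wider pathway was described with 10 role lists, the members included. Of 78 measured genes 8 were higher, 7 lower and 63 did not pass (19.2%, against 13.4% of all genes), with a median difference of −0.04. With wild-type replicate 2 left out, 10 rose and 10 fell (25.6%, against 19.0% of all genes in the same setting). At least 2-fold differences were found for Pla2g4a, Hpgds and the epoxygenase gene Cyp2u1 in one direction and for Faah, Mgll and Cyp2j6 in the other.

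**Figure D4:**
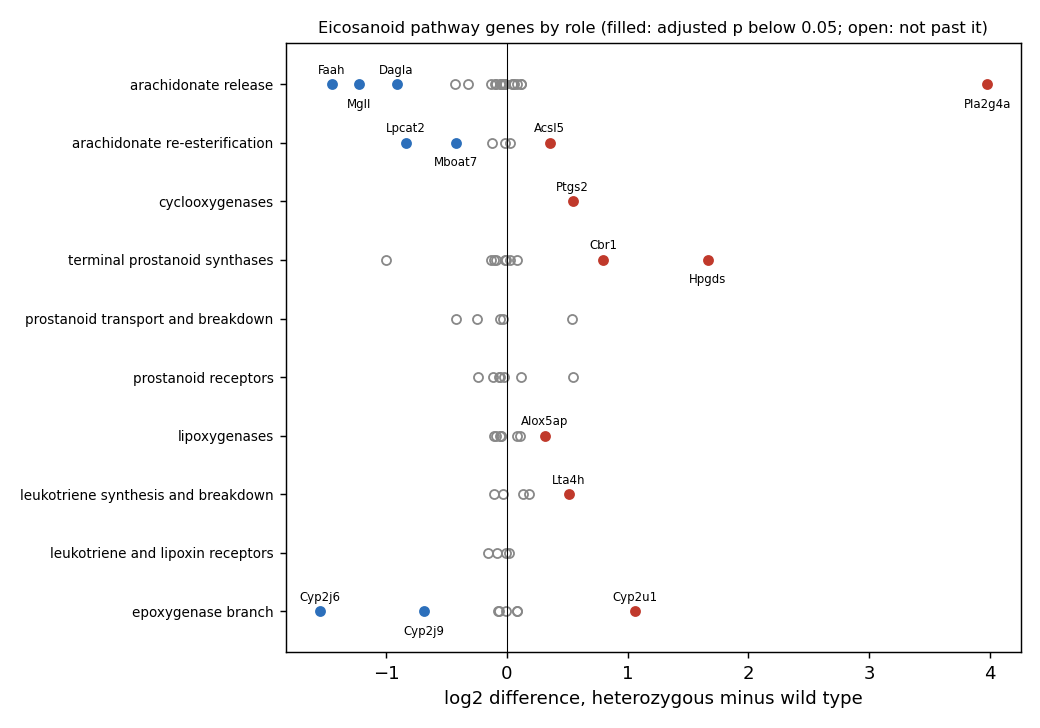
Log2 difference of each of 78 measured genes, grouped by role; each point is a gene, filled where it passed at an adjusted p below 0.05 (red higher, blue lower) and open where it did not. Pla2g4a at 3.98 stands alone on the right, Faah, Mgll and Dagla lie between −1.45 and −0.91 in the same row, and the 7 prostanoid receptor genes are all open.

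Pla2g4a was the one gene to rise among 24 measured for arachidonate release, while 3 fell and 20 did not pass. Without wild-type replicate 2 the counts were 2 higher and 4 lower, with the secreted phospholipase gene Pla2g2e (0.35, adjusted p 0.017) and Plaat3 (−0.36, adjusted p 0.0447) added. The 3 that fell with all arrays were Faah, Mgll and Dagla. Faah, the gene of the hydrolase that splits anandamide, read 8.79, 9.91 and 8.76 in the wild type and 7.71, 7.85 and 7.55 in the heterozygous line. Wild-type replicate 2 was again the high array, but no arrays overlapped, and the difference was −1.45 (SE 0.28, adjusted p 0.0126). Mgll, which encodes monoacylglycerol lipase, differed by −1.22 (SE 0.16, adjusted p 0.0015), from 8.92 ± 0.30 to 7.69 ± 0.18. Dagla, the gene of the lipase that makes 2-arachidonoylglycerol, differed by −0.91 (SE 0.14, adjusted p 0.00312), from 10.49 ± 0.28 to 9.57 ± 0.07 (SD, n = 3). Its relative Daglb differed by −0.43 and did not pass (adjusted p 0.0602). With heterozygous replicate 3 left out, Faah no longer passed (adjusted p 0.0541, the highest of its alternatives, which began at 0.000354). The other cytosolic phospholipase genes measured, Pla2g4c, Pla2g4d, Pla2g4e and Pla2g4f, differed by −0.05 to 0.06 and did not pass.

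Of 6 genes that return arachidonic acid to phospholipids, 1 was higher and 2 lower. Lpcat2, an acyltransferase gene, differed by −0.84 (SE 0.16, adjusted p 0.0106) and Mboat7, whose enzyme loads arachidonate onto phosphatidylinositol, by −0.43 (SE 0.08, adjusted p 0.0136). Acsl5, an acyl-CoA synthetase gene, rose by 0.35 (adjusted p 0.0487). Lpcat2 no longer passed with wild-type replicate 1 left out (0.0515, in a range from 0.000111 to 0.0515) and Mboat7 without heterozygous replicate 1 or 3 (0.0609 and 0.067; 0.00414 to 0.067). Acsl5 lost it with any array but wild-type replicate 2 left out and with the replicate block (0.0694; 0.00482 to 0.149), so that 1 gene of the list passed without wild-type replicate 1 or heterozygous replicate 1 or 3. Acsl4, the synthetase gene with a preference for arachidonate, and Lpcat3 did not pass (−0.12 and 0.03).

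Among 10 terminal synthases 2 rose and 8 did not pass. Besides Hpgds this was Cbr1, a carbonyl reductase gene whose enzyme can turn prostaglandin E into F (0.80, SE 0.16, adjusted p 0.0159); its second probe set differed by 0.20 and did not pass (adjusted p 0.166). With heterozygous replicate 1 or 3 left out Cbr1 no longer passed (adjusted p 0.0565 and 0.0689, in a range that began at 0.00456), and 1 gene of the list remained past the threshold. Of 5 genes for prostaglandin export, uptake and breakdown 0 passed by limma, with 0 higher and 2 lower at an unadjusted p below 0.05. Abcc4, an exporter gene, read 8.10, 9.42 and 7.97 against 8.96, 9.08 and 9.06. Wild-type replicate 2 lay above the heterozygous arrays and the remaining wild-type arrays below them, and the difference was 0.54 with it and 0.999 without it (adjusted p 0.396 and 0.000159, the lowest of its alternatives, which reached 0.709). Without that array 2 genes of this list passed, Abcc4 as higher and the reductase gene Ptgr2 as lower (−0.57). Array weights also gave 2.

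Of 7 prostanoid receptor genes 0 passed by limma, with 1 higher and 0 lower at an unadjusted p below 0.05. That one was the prostacyclin receptor gene Ptgir, with 7.12, 6.41 and 7.02 against 7.23, 7.48 and 7.49. Its arrays did not overlap, and the difference was 0.55 (SE 0.18, adjusted p 0.0955; 0.0622 to 0.254 over all alternatives). The receptor genes for prostaglandins F and D, EP3 and thromboxane (Ptgfr, Ptgdr, Ptger3 and Tbxa2r) differed by −0.11 to 0.12.

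In the leukotriene branch, Alox5ap, which encodes the partner protein that presents arachidonic acid to 5-lipoxygenase, differed by 0.32 (SE 0.07, adjusted p 0.0237). The lipoxygenase list counts it beside the enzymes, and it was the one of the 8 listed genes to pass. Its second probe set differed by −0.19 and did not pass, the mean of both by 0.07 (adjusted p 0.672), and it did not pass when wild-type replicate 1 or any heterozygous array was left out (up to 0.105) or with the replicate block (0.0625, in a range of alternatives from 0.0126 to 0.672). Lta4h, the gene of leukotriene A4 hydrolase, rose by 0.51 (SE 0.13, adjusted p 0.0368), the one of 5 genes of leukotriene synthesis and breakdown to pass. With any array but wild-type replicate 2 left out, and with the replicate block (0.0502), it did not pass (alternatives from 0.00101 to 0.129). Of 4 leukotriene and lipoxin receptor genes 0 passed by limma, with 0 at an unadjusted p below 0.05. Ltb4r1, with the highest signal of these, differed by −0.16 (adjusted p 0.337).

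Of 8 epoxygenase branch genes 1 rose, 2 fell and 5 did not pass. Cyp2j6, a P450 gene of arachidonate epoxidation, read 10.27, 10.26 and 10.34 in the wild type and 8.78, 8.68 and 8.77 in the heterozygous line. The replicates of either line nearly coincide, and the difference was −1.55 (SE 0.07, adjusted p 4.26e-06). Its relative Cyp2j9 differed by −0.69 (SE 0.16, adjusted p 0.0252), and Cyp2u1, a P450 gene for long-chain fatty acids, by 1.06 (SE 0.13, adjusted p 0.00106). Leaving out any array except wild-type replicate 2 and heterozygous replicate 3 ended the call of Cyp2j9 (its alternatives spanned adjusted p values of 0.000947 to 0.103). The hydrolase genes Ephx1 and Ephx2, which remove the epoxides, did not pass (−0.08 and −0.01). Cyp2j genes are close relatives, and how far their probe sets cross-hybridise was not tested.

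Genes that cyclic AMP induces were listed too, because EP2, EP4 and the prostacyclin receptor raise it. Of 14 measured 7 were higher, 0 lower and 7 did not pass (7.46% of all genes were higher), with a median difference of 0.64 against 0.001 over all genes. Nr4a3, an orphan nuclear receptor gene, read 6.31, 6.97 and 6.29 in the wild type and 9.43, 9.62 and 9.57 in the heterozygous line, without overlap. The difference was 3.02 (SE 0.18, adjusted p 1.74e-05), or 8.10-fold. Ppargc1a, the gene of the coactivator PGC-1 alpha, rose by 2.71 (SE 0.29, adjusted p 0.000567), from 6.69 ± 0.69 to 9.40 ± 0.08, and Rgs2, a regulator of G protein signalling, by 1.57 (SE 0.18, adjusted p 0.000712). The second probe set of Rgs2 differed by 0.25 and did not pass. The remaining 4 that rose were Nr4a1, Dusp1, Pde4b and Crem, named after their values were seen.

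**Figure D5:**
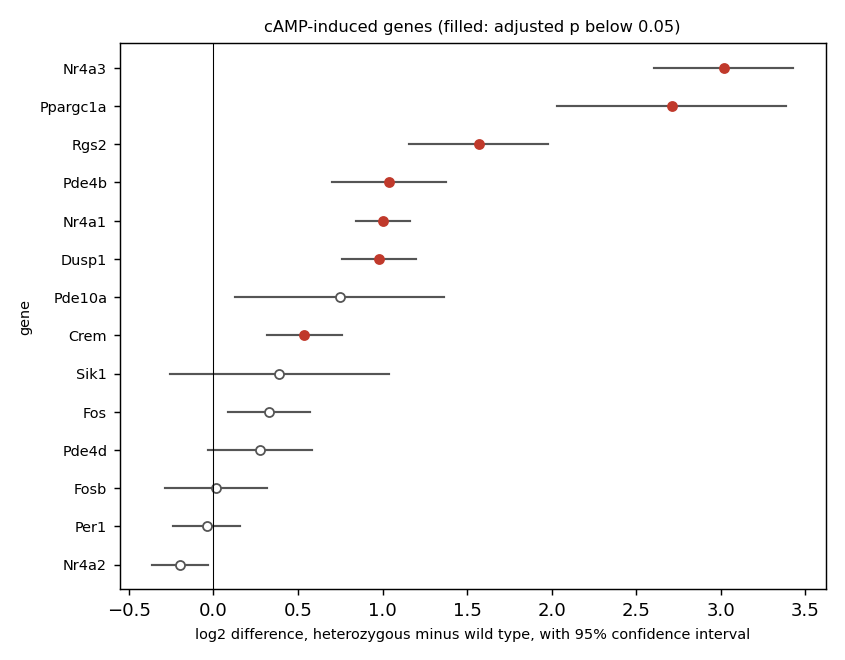
Log2 difference with its 95% confidence interval for the 14 measured genes that cyclic AMP induces, sorted by difference; filled points passed at an adjusted p below 0.05. The differences run from 3.02 for Nr4a3 to −0.20 for Nr4a2.

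Nr4a2, Fosb and Per1 did not pass (−0.20, 0.02 and −0.04). Replicate 2 of the wild type was the highest of its line in 11 of the 14 genes of this list (median 0.38 above the mean of the other pair) and in 6 of the 8 members (median 0.14), against 37.0% of all genes (median 0.001). Without it 11 of the 14 passed, all higher, with Fos, Pde10a, Pde4d and Sik1 added, where 10.4% of all genes were higher in that setting. Many of these genes also answer to protein kinase C and to growth factors, and the part of the medium's cholera toxin and phorbol ester, which both lines received, was not tested.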

How the data were processed

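The deposited values are log2 signals of 41345 probe sets on 6 arrays. Per the labels, the authors made them with RMA, which corrects background, normalizes between arrays and summarises probes into probe sets; the submitters' processing notes also list Partek, and versions and settings are not stated in these sources. No further scaling was applied. A probe set with 1 symbol (23521 of them) could be used; 1814 had several symbols and 16010 had none in the annotation. The brightest probe set stood for each of 22180 genes, dim ones included. Differences came from limma 3.58.1 under R 4.3.3, with lmFit and eBayes (2-sided, 7.87 total degrees of freedom) and Benjamini-Hochberg adjustment over all genes; the procedure was tested on simulated data. An array gives signal and no counts, and 3 arrays a line limit the precision. The members and lists (10 eicosanoid role lists, cAMP-induced genes, 6 cell type marker lists) were chosen with earlier results of these data known. Named genes were the members, up to 3 other passing genes of each role list by size (where none passed, the one of highest signal) and the 3 most similar to each of the 2 members with the largest differences; others were named after their values were seen. Alternative settings changed the scaling between arrays (median, quantile), removed dim genes, averaged probe sets, altered eBayes (trend, robust), weighted arrays, added a replicate block, tightened the threshold or dropped single arrays. The lines share replicate numbers, but deviations of same-numbered arrays did not correlate across genes, so no block was used in the fit reported.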

Additional observations from a re-analysis of the deposited data

How the results depend on the processing

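Of the 8 members, 2 passed, and 1 did when dim genes were left out, which removes Ptgs2 and 2 others before the fit, or when an at least 2-fold difference was asked for; 3 passed with array weights and without wild-type replicate 2 or 3. Of the 92 pathway genes, cAMP-induced genes included, 22 passed (23.9%, against 13.4% of all genes). At an adjusted p below 0.01 the count was 14, and at an at least 2-fold difference it was 11, where 3.53% of all genes passed. With single arrays left out it was 16 to 31. The 31 came without wild-type replicate 2 (33.7%, against 19.0% of all genes in that setting). Apart from that setting and the 2-fold threshold, shares of all genes under the alternatives are not given, so nothing is read from those counts. With the replicate number as a block, 2 members and 19 pathway genes passed. Deviations of same-numbered arrays did not correlate (r of 0.0074, 0.016 and −0.0039 across 22180 genes), so the number is not shown to pair them. Median centring and quantile normalization left both counts as they were and moved the median of all genes by 0.029 and 0.015. Signs turned in members near 0: Ptger2 was 0.0022 with median centring, and with single arrays left out Ptger2 lay between −0.0699 and 0.0244, Ptges2 between −0.021 and 0.07 and Alox5 between −0.087 and 0.022. The cause was not tested. The dimmer Alox5 probe set was added after seeing the data. Ptgs2, Ptger2 and Ptger4 are dim, so small changes there may be hidden.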
